A study of Mus musculus with 12 samples.

Results

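The SLC25 family holds the solute carriers of the inner mitochondrial membrane, and its genes were followed here through the loss of the transcription factor Ronin, encoded by Thap11, in mouse embryonic stem cells. Members were all genes whose symbol in the platform annotation begins with Slc25a and a digit, leaving out Slc25a31, which gave 43 of the 18194 genes tested. Each gene was read through its brightest probe set, the set of short probes that reads a transcript, among those annotated with a single symbol. All cells carried Roninflox/flox alleles, in which loxP sites flank a part of the gene. The knockout cells also carried CreERT2, a recombinase that tamoxifen activates, and the controls were Roninflox/flox cells without it. Both received 0.25 µM tamoxifen, were split on day 4 and were collected on days 1.5, 3 and 6, with 2 arrays for each of the 6 groups. The labels describe one source, an embryonic stem cell line, and do not say how many clones it stood for. Since all knockout samples and none of the controls carried CreERT2, effects of the recombinase or of the line cannot be told apart from those of losing Ronin.

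SLC25 carriers are small proteins of the inner membrane that exchange one metabolite for another between the cytosol and the mitochondrial matrix. They pass ADP against ATP, phosphate, citric acid cycle intermediates, amino acids, nucleotides, coenzymes, acylcarnitine, iron and glutathione, so the supply of substrates to respiration, one-carbon metabolism and heme synthesis runs through them. They are made from nuclear genes and imported after translation. Stem cells of the early embryo rely strongly on glycolysis, and Ronin, a zinc finger protein that acts with HCF-1, is known for its binding at promoters of genes of metabolism and growth.

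Thap11 itself had intensities of 1262 and 1181 in the controls and 327 and 354 in the knockout cells of day 1.5. The pair of values was 1279 and 1290.1 against 110.2 and 92.7 on day 3 and 1305 and 1382 against 50.6 and 51.5 on day 6. Every knockout array was thus below every control array, in the direction the labels give, although whether the probes lie in the deleted part was not analysed here. The summed intensity of 10 embryonic stem cell markers stayed between 77079 and 81360 on all arrays. It was higher in knockout cells on day 1.5, at 81228.5 to 81360 against 78252 to 80603. On day 6 it was again higher, at 78921 to 79180 against 77123 to 77334, and on day 3 the groups overlapped. In knockout cells 1 of these markers was higher and 1 lower on day 1.5, 2 and 2 on day 3, and 1 and 2 on day 6. The sum of 10 fibroblast or feeder markers was lower in knockout cells on day 1.5, at 329 to 361 against 437 to 466, and on day 6, at 332 to 341 against 452 to 522, and overlapped on day 3, at 370 to 398 against 372 to 393. Of these 10 markers 1 was lower on day 1.5, Thy1, and 3 on day 6, Col1a1, Col1a2 and Thy1, and none was higher. Markers of extraembryonic endoderm, a lineage that arises in stem cell cultures, moved more. Their summed intensity was 2368 to 2583 in the controls of day 3 but 4918 to 5111 and 5093 to 5104 in those of days 1.5 and 6, and in knockout cells it was 3502 to 3627, 3361 to 3440 and 6157 to 6249 on the 3 days. In knockout cells 5 of these 10 markers were lower on day 1.5, 3 were higher and 1 lower on day 3, and 2 were higher and 3 lower on day 6. The part of these marker lists in the carrier results was not tested. In bulk RNA, fewer cells of a type and less RNA per cell cannot be told apart.

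The loss of Ronin was accompanied by changes in both directions within the family, most of them small, and calls took in 41.9% of it on day 3 and 46.5% on day 6. A gene was called where limma's adjusted p, over all genes tested, was under 0.05. On day 1.5, 4 members rose and 2 fell, which is 9.30% and 4.65% of the family beside 5.93% and 3.98% of all genes. On day 3, 9 rose and 9 fell, 20.9% each, beside 13.3% and 10.0% of all genes. On day 6, 7 rose and 13 fell, or 16.3% and 30.2%, beside 17.2% and 15.3%. The higher share of day 6 lay close to that of all genes. The family as a whole was centred near 0, with a median log2 difference of 0.055, 0.032 and 0.033 on the 3 days beside 0.0028, 0.028 and -0.0013 for all genes.

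Of the called members, only 5 members, Slc25a23, Slc25a26, Slc25a30, Slc25a37 and Slc25a44, passed a log2 difference of 0.5 in size, and none passed 1. Of the 43 members, 14 were called on no day, 15 on 1 day, 13 on 2 days and Slc25a40 on all 3. Slc25a23, Slc25a28, Slc25a30, Slc25a33, Slc25a37 and Slc25a39 were lower on both day 3 and day 6, and Slc25a20 and Slc25a26 were higher on both. Shares of all genes for these counts, by size or by number of days, are not given here, so none of the counts is read as a trait of the family. Single arrays weighed on these counts. Of the 6 calls of day 1.5, 2 stayed without control replicate 1, beside 1 further member then called, 1 stayed without control replicate 2 or knockout replicate 1, and 0 without knockout replicate 2, with 9 members then at an unadjusted limma p under 0.05. On day 3 the 18 calls became 10 without control replicate 1 and 9 without knockout replicate 1. On day 6 the 20 calls became 13, 12, 13 and 11 without control replicate 1, control replicate 2, knockout replicate 1 and knockout replicate 2. Calls that stayed whichever of the 12 arrays was left out were those of Slc25a11, Slc25a20, Slc25a26, Slc25a30, Slc25a33, Slc25a36, Slc25a37 and Slc25a38 on day 3 and of Slc25a12, Slc25a22, Slc25a23, Slc25a26, Slc25a30, Slc25a32, Slc25a33, Slc25a37, Slc25a39, Slc25a40 and Slc25a44 on day 6.

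**Figure D1:**
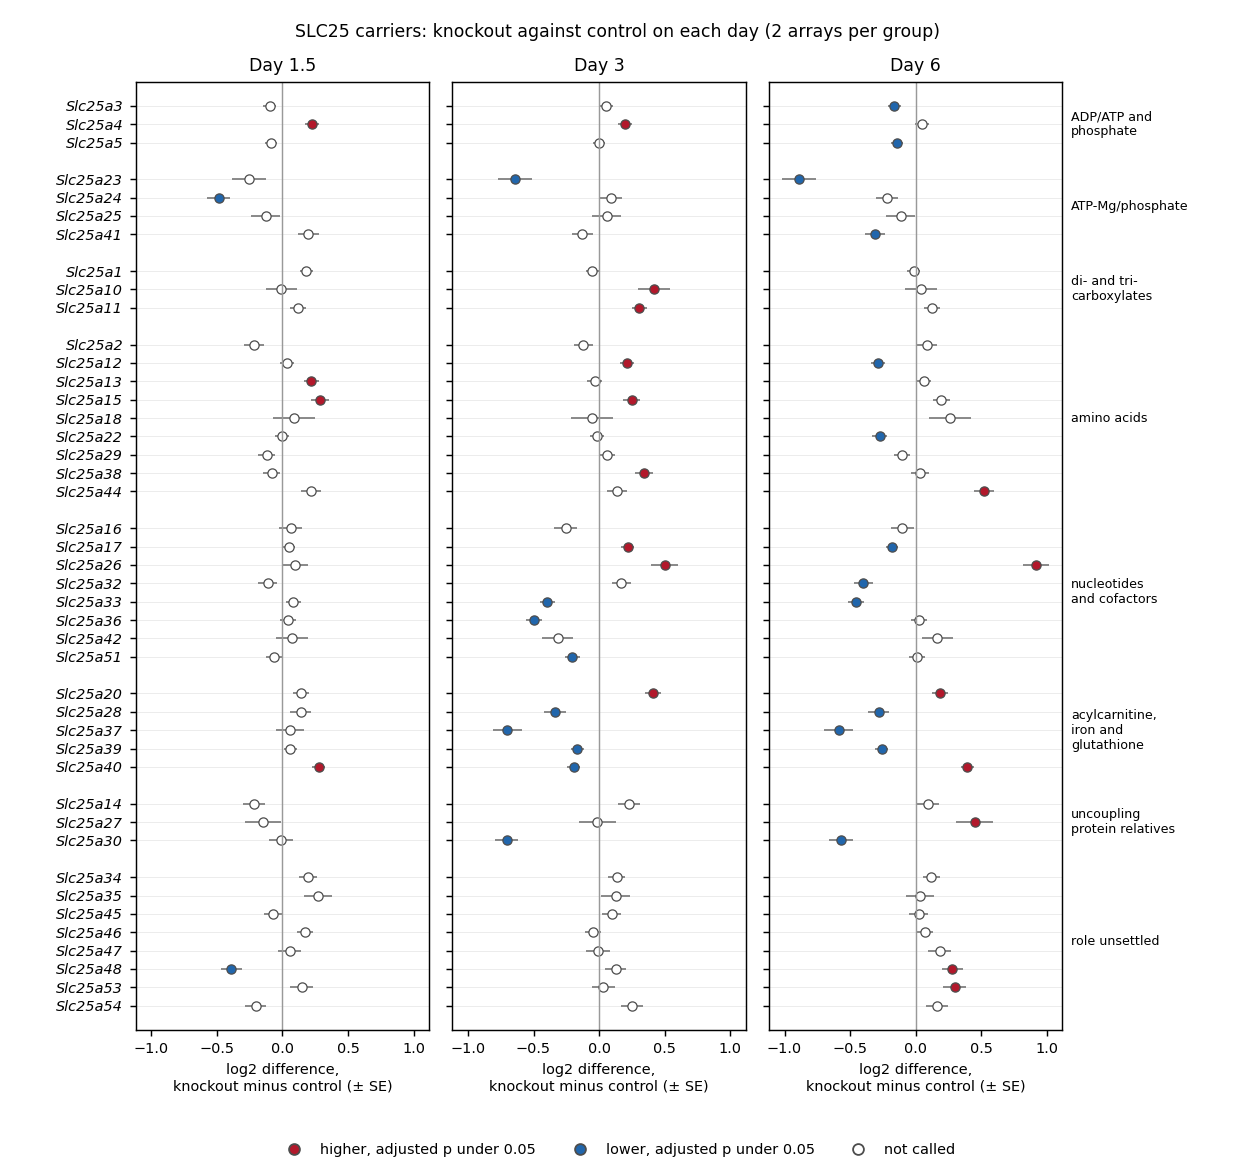
Log2 difference, knockout minus control, of each of the 43 SLC25 members (rows, grouped by what they carry) on days 1.5, 3 and 6, with bars of 1 standard error from limma; red and blue points were called higher and lower at an adjusted p under 0.05, and open points were not called. Calls grow from 6 on day 1.5 to 18 on day 3 and 20 on day 6, and the points farthest from 0 are Slc25a26 and Slc25a23 on day 6.

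Among the ATP-Mg/phosphate carriers, which load the matrix with adenine nucleotides, Slc25a23 had the largest fall of the family. Its intensities in the controls were 79.8 and 87.8 on day 1.5, 96.2 and 80.2 on day 3 and 67.4 and 84.9 on day 6. In the knockout cells they were 66.7 and 73.7, then 52.9 and 60.0, then 40.1 and 41.7. No knockout array reached a control array of its day, and the lowest pair was that of day 6. With 2 arrays per group, a lack of overlap, here and below, does not by itself set a member apart. Slc25a14, Slc25a34 and Slc25a54, called on no day, also had no overlap on any of the 3 days, and the share of all genes without overlap is not given here. The log2 difference was -0.26 on day 1.5, which was not called, -0.64 ± 0.13 (SE) on day 3 and -0.89 ± 0.13 on day 6, with limma adjusted p of 0.0060 and 0.00064 on the last 2 days. Without knockout replicate 1 of day 3 the day 3 value was -0.55 and no longer called. Slc25a41, the gene next to Slc25a23 on chromosome 17, was lower on day 6 only, at -0.31 ± 0.077, from 31.2 and 34.2 in controls to 27.9 and 25.0 in knockout cells, intensities below the array medians. Slc25a24 fell on day 1.5 alone, from 187 and 163 to 126 and 124, a difference of -0.49 ± 0.085, and Slc25a25 was called on no day.

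Both iron carriers of the inner membrane, which deliver iron for heme and iron-sulfur clusters, were lower from day 3. Slc25a37, mitoferrin-1, had control intensities of 197 and 198 on day 3 and 185 and 171 on day 6, against 125 and 118 and 134 and 105 in knockout cells. The groups did not overlap on either day, whereas on day 1.5 the knockout values of 167 and 159.9 overlapped the control values of 148 and 166. Its log2 differences were -0.70 ± 0.11 on day 3 and -0.59 ± 0.11 on day 6 (limma adjusted p = 0.0015 and 0.0025). Slc25a28, mitoferrin-2, went from 608 and 504 in controls to 441 and 436 in knockout cells on day 3 and from 537 and 518 to 439.6 and 428 on day 6. It too showed no overlap on these days. Its differences were smaller, at -0.34 ± 0.082 and -0.28 ± 0.082 (limma adjusted p = 0.016 and 0.026). The call of day 3 was lost without control replicate 1 or either knockout array, and that of day 6 without any one of its 4 arrays.

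The 3 relatives of the uncoupling proteins did not move as a group. Slc25a30, a carrier of the uncoupling protein branch first described in kidney, had intensities of 259.7 and 292 in the controls of day 3 and 164 and 174 in the knockout cells. On day 6 the values were 271 and 282 against 191 and 182, again with no overlap, while those of day 1.5 overlapped. The log2 differences were -0.71 ± 0.089 and -0.57 ± 0.089 (limma adjusted p = 0.00052 and 0.0011), and 2 of its other probe sets read the same direction on both days, one of them at -0.94 and -0.53 and the other at -0.33 and -0.35. The remaining 2, both dim, differed in sign between the days. Slc25a27, known as UCP4 and typical of neurons, was higher on day 6 only, at 0.45 ± 0.14, from 41.8 and 34.4 to 48.8 and 55.0. These control values lay under the medians of their arrays, and the controls of day 1.5 read 51.4 and 51.0. Its other probe sets, all dimmer, read -0.038, 0.21 and 0.24 on day 6, and the call was lost with only the arrays compared. Slc25a14 was called on no day.

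**Figure D2:**
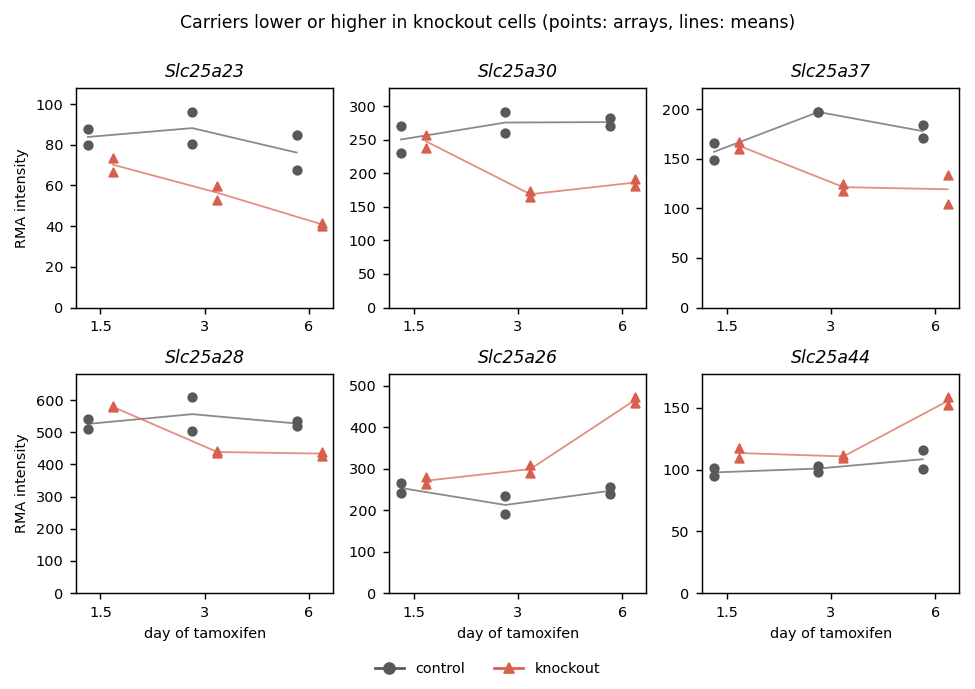
RMA intensity (linear axis from 0) on each array of controls (grey circles) and knockout cells (red triangles) on days 1.5, 3 and 6 for Slc25a23, Slc25a30, Slc25a37, Slc25a28, Slc25a26 and Slc25a44; lines join the means of 2 arrays. The first 4 lie below their controls on days 3 and 6, and Slc25a26 and Slc25a44 lie above theirs on day 6.

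The largest rise was in Slc25a26, the carrier that brings S-adenosylmethionine, the methyl donor, into the matrix. Control intensities were 266 and 240.2 on day 1.5, 235 and 190.2 on day 3 and 255 and 238 on day 6. Knockout intensities were 262 and 279.8, 309 and 289 and 472 and 458 on the same days. The groups overlapped on day 1.5 and were apart on days 3 and 6, with the knockout arrays of day 6 higher than all others. The differences were 0.50 ± 0.10 on day 3 and 0.92 ± 0.10 on day 6 (limma adjusted p = 0.0063 and 0.00013). Its other probe set gave 0.41 and 0.41, so the size of the day 6 difference depended on the probe set. The effect of day 6 exceeded that of day 1.5 by 0.82 ± 0.14 (limma adjusted p = 0.0038 for the difference), a call that was lost with the mean of both probe sets.

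The nucleotide and cofactor carriers, Slc25a26 included, were called in both directions. Of the 8 measured, 2 rose and 3 fell on day 3, and 1 rose and 3 fell on day 6. Slc25a33, which imports pyrimidine nucleotides, had 977 and 918 in the controls of day 6 and 682 and 699.7 in knockout cells, a difference of -0.45 ± 0.058 (limma adjusted p = 0.00032). On day 3 it differed by -0.40 ± 0.058, from 1220.5 and 1137 to 887 and 905. Its arrays did not overlap on either day. Slc25a32, which carries folate, fell on day 6 from 259 and 281 to 210.2 and 199, by -0.40 ± 0.073. Its other probe sets did not both read that sign: one with a mean intensity of 144 gave -0.45 and one at 9.95 gave 0.063. Slc25a17, which serves peroxisomes and carries coenzyme A and FAD, was higher on day 3 at 0.22 and lower on day 6 at -0.18. Slc25a36, a second pyrimidine nucleotide carrier, and Slc25a51, the NAD carrier, were lower on day 3 alone, at -0.50 and -0.20, and Slc25a16 and Slc25a42 were called on no day.

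The 9 amino acid carriers gave 3 rises and 0 falls on day 3, and 1 rise and 2 falls on day 6. Slc25a44, a carrier of branched-chain amino acids, rose on day 6 from 101 and 116 to 159 and 153, the highest 2 values of its 12, with a difference of 0.52 ± 0.076 (limma adjusted p = 0.00072). Its other probe sets read 0.32 and 0.023 on that day. Slc25a22, which imports glutamate, fell on day 6 from 294 and 299 to 249.7 and 241, by -0.28 ± 0.054 (limma adjusted p = 0.0037). Slc25a12, the aspartate-glutamate carrier of the malate-aspartate shuttle, was also lower on day 6, at 848 and 850.5 against 1053 and 1018, a difference of -0.29 ± 0.052 (limma adjusted p = 0.0026), after being higher by 0.22 on day 3. Its close relative Slc25a13, or citrin, was higher on day 1.5 only, at 0.22. Slc25a15, the ornithine carrier of the urea cycle, was higher on days 1.5 and 3, at 0.29 and 0.25, and Slc25a38, which supplies glycine for heme synthesis, on day 3 at 0.35. Slc25a2, Slc25a18 and Slc25a29 were called on no day.

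The carriers of the bulk energy traffic include the brightest of the family, and their called differences were small on day 6. Slc25a5, the main ADP/ATP carrier of dividing cells, had control intensities of 16829.6 and 16594 on day 6 and knockout intensities of 15396 and 14956. The groups did not overlap, yet the difference was only -0.14 ± 0.045 (limma adjusted p = 0.043), and all 8 of its probe sets were lower on that day. Slc25a3, the phosphate carrier, read 11221 and 11280.5 against 10036 and 10076, a difference of -0.16 ± 0.047 (limma adjusted p = 0.027), while its second, dim probe set read 0.21. Slc25a4, the ADP/ATP carrier known from heart and muscle, was higher by 0.23 ± 0.053 on day 1.5 and 0.20 ± 0.053 on day 3, and on day 6 it read 7001 and 6983 in controls and 7351 and 7091 in knockout cells, a difference of 0.046 that was not called. Among the di- and tricarboxylate carriers, Slc25a10 and Slc25a11, which exchange malate, were above controls on day 3 by 0.42 and 0.31 and not called on other days. Control means on days 1.5, 3 and 6 were 221.2, 164.3 and 221.1 for Slc25a10 and 610.7, 523.7 and 614.6 for Slc25a11. Knockout means were 220.0, 220.5 and 226.8, and 663.6, 648.4 and 669.2, so the low values were those of the day 3 controls. Slc25a1, which exports citrate for lipid synthesis, was called on no day.

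The glutathione carrier Slc25a39 and its relative Slc25a40 parted. Slc25a39, among the 4 brightest members, had 13594 and 13499 in the controls of day 6 and 11415 and 11246 in knockout cells, lower by -0.26 ± 0.049 (limma adjusted p = 0.0032), and all its 5 probe sets were lower on that day. Slc25a40 had 1149.9 and 1115 against 1505 and 1474 on day 6, higher by 0.40 ± 0.050 (limma adjusted p = 0.00030). It was also higher on day 1.5, at 0.28, and lower on day 3, where controls read 1220.1 and 1155 and knockout cells 1031 and 1044, a difference of -0.19 ± 0.050. The change of its effect between days 1.5 and 3 was -0.47 ± 0.070 and that between days 3 and 6 was 0.59 ± 0.070, both past the threshold (limma adjusted p = 0.0028 and 0.0010). Slc25a20, which exchanges acylcarnitine for carnitine in fatty acid oxidation, was higher on day 3 at 0.41 ± 0.061 and on day 6 at 0.19 ± 0.061, where the controls read 1545 and 1485 and the knockout cells 1684 and 1769.9. Its call of day 6 was lost with a replicate block, with only the arrays compared and without any one array of that day. Its day 3 value was -0.088 and not called against the controls of days 1.5 and 6.

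Of the 8 members whose transported solute is not settled, Slc25a48 was lower on day 1.5, at -0.39, and higher on day 6, at 0.28, and Slc25a53 was higher on day 6 at 0.30. Slc25a46, a family member of the outer membrane tied to mitochondrial shape, was called on no day, as were the other 5. The 14 members called on no day had differences from -0.22 to 0.27 on day 1.5, from -0.32 to 0.25 on day 3 and from -0.11 to 0.26 on day 6. Other probe sets of the called members did not all read the sign of the call. Of the 20 members called on day 6, 13 had further probe sets, and in 8 of these all of them had the same sign. The exceptions were Slc25a3, Slc25a27, Slc25a30, Slc25a32 and Slc25a53. On day 3 all further probe sets had the same sign in 7 of 11, the exceptions being Slc25a12, Slc25a17, Slc25a30 and Slc25a51. On day 1.5 they did in 3 of 4, the exception being Slc25a48. The remaining called members had no further probe set. The suffix of the tested probe set marks probes that may also read other transcripts for Slc25a5, Slc25a26, Slc25a29, Slc25a39 and Slc25a47.

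The control cells, which keep Ronin, gave a baseline for these values, and in them the family was far from constant. Between days 1.5 and 3, 6 members rose and 10 fell, beside 9.12% and 18.2% of all genes. Between days 3 and 6, 10 rose and 8 fell, beside 19.5% and 8.01%. Between days 1.5 and 6 only 1 rose and 1 fell, beside 1.09% and 0.473% of all genes. These 3 comparisons share arrays. The direction of the first 2 depended on scaling: with quantile normalization 9 members rose and 7 fell from day 1.5 to day 3, beside 2098 and 2587 of all genes in place of 1659 and 3307. From day 3 to day 6 the members gave 6 rises and 7 falls with quantile normalization and 10 and 5 with arrays centred on their median, and all genes gave 2598 and 1806, and 4841 and 965, in place of 3543 and 1457. Array medians were 44.4 to 44.7 on day 3 in both genotypes and 42.4 to 43.0 on the other days. Without control replicate 1 of day 1.5 the 16 calls of the first comparison became 10.

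The member that moved most among controls was Slc25a24, the ATP-Mg/phosphate carrier SCaMC-1. Its intensities were 187 and 163 on day 1.5, 88.0 and 85.0 on day 3 and 301 and 296 on day 6, 3 levels with no overlap. It fell by 1.01 on the log2 scale between the first days (limma adjusted p = 7.3e-05) and rose by 1.79 ± 0.085 between the last (limma adjusted p = 3.1e-06), which left it above its first level by 0.77 ± 0.085. In knockout cells the same days read 126 and 124, 84.8 and 99.8 and 258 and 255, so day 3 was lowest and day 6 highest in both genotypes. The fall to day 3 was smaller in knockout cells. Their difference from controls moved by 0.58 between days 1.5 and 3 (limma adjusted p = 0.013), a call that was lost with the mean of all probe sets. Its neighbour on chromosome 3, Slc25a54, was dim on all arrays and did not pass in controls.

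Other carriers had a low point on day 3 in the controls. Slc25a12 read 1277 and 1219, then 810.2 and 816, then 1053 and 1018, with changes of -0.62 ± 0.052 and 0.35 ± 0.052. It was also the 1 member that fell between days 1.5 and 6, with a change of -0.27. That last call was lost whichever of the 12 arrays was left out. It was also lost with a replicate block, only the arrays compared, averaged probe sets, probe sets without a suffix or median centring. Slc25a20 read 1547 and 1609, then 1149 and 1040.2, then 1545 and 1485, with changes of -0.53 ± 0.061 and 0.47 ± 0.061. Slc25a10 rose by 0.42 ± 0.12 from day 3 to day 6, from 155 and 174 to 201 and 242. In all 9 members were below both other days in the controls of day 3, by calls in both comparisons, 20.9% of the family beside 14.7% of all genes. They were Slc25a10, Slc25a11, Slc25a12, Slc25a15, Slc25a17, Slc25a20, Slc25a24, Slc25a32 and Slc25a38. Slc25a10, Slc25a11, Slc25a15 and Slc25a32 lost both calls with quantile normalization. With the mean of all probe sets Slc25a12, Slc25a17 and Slc25a32 lost them, and the rise of Slc25a12 turned to -0.037. Without control replicate 1 of day 1.5, 5 of the 9 stayed.

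A smaller set of 5 members, Slc25a1, Slc25a22, Slc25a33, Slc25a36 and Slc25a39, had a high point on day 3, 11.6% of the family beside 5.22% of all genes. The change of Slc25a39 from day 1.5 turned from 0.23 to -0.12 with probe sets without a suffix, and its change to day 6 lost the call under both other scalings. Slc25a33 read 860.3 and 824 on day 1.5 and 1220.5 and 1137 on day 3, a rise of 0.48 ± 0.058. Slc25a36 read 4412 and 4791, then 6173 and 6111, then 4439.9 and 4529.9, with changes of 0.42 ± 0.064 and -0.45 ± 0.064. Slc25a1 read 859.8 and 824, then 1142 and 1184, then 877 and 861, with changes of 0.47 ± 0.050 and -0.42 ± 0.050. In these 3 the arrays of day 3 stood above all control arrays of the other days. Slc25a27 fell from 74.3 and 60.7 to 41.8 and 34.4 between days 3 and 6, a difference of -0.83 ± 0.14.

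**Figure D3:**
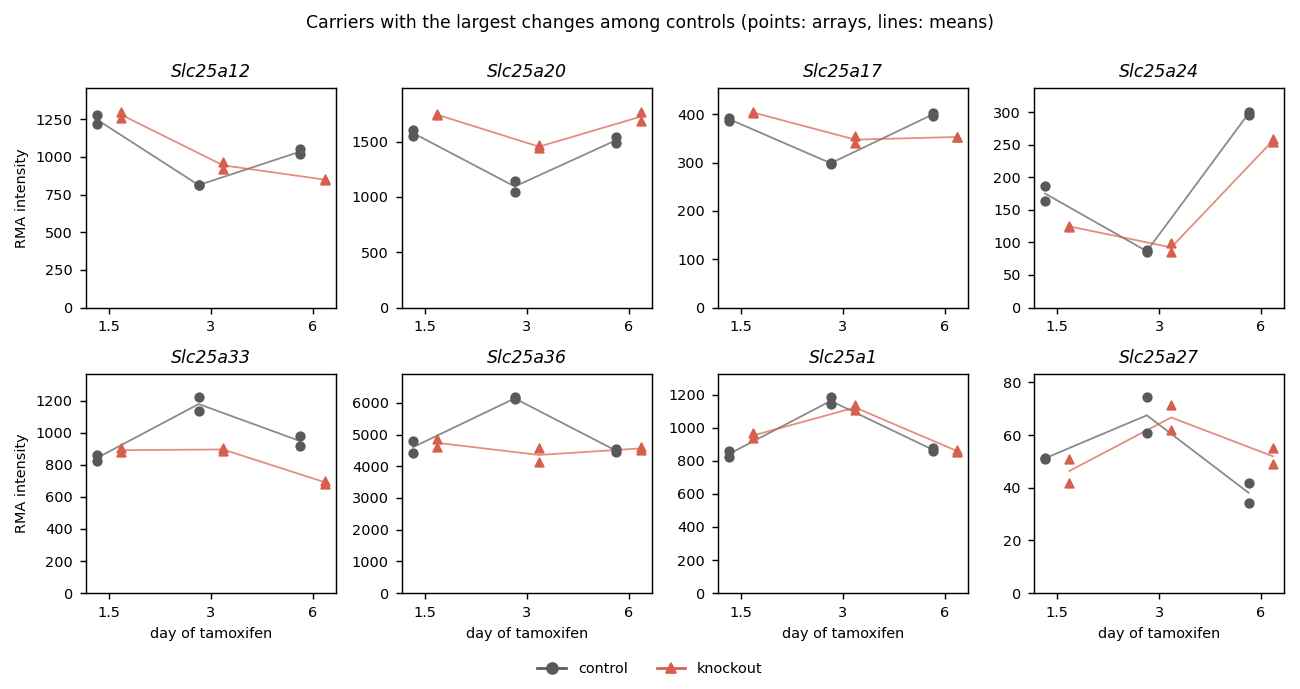
RMA intensity (linear axis from 0) on each array of controls (grey circles) and knockout cells (red triangles) on days 1.5, 3 and 6 for Slc25a12, Slc25a20, Slc25a17, Slc25a24, Slc25a33, Slc25a36, Slc25a1 and Slc25a27; lines join the means of 2 arrays. In the controls the first 4 have their lowest values on day 3 and the last 4 their highest, and the knockout arrays of Slc25a36 stay at 4146 to 4854.

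Because the controls of day 3 stood apart, the knockout cells of day 3 were also compared with the average of the day 1.5 and day 6 controls. This second comparison runs across days, so genotype cannot be told apart in it from anything common to the arrays of day 3, whose medians were higher in both genotypes. Both comparisons share the knockout arrays of day 3. With these other controls 5 members were higher and 10 lower, beside 10.0% and 15.5% of all genes. Of the 9 members higher against their own controls, none kept the call. Slc25a12 and Slc25a17 were called lower instead, at -0.27 ± 0.045 and -0.18 ± 0.041 (limma adjusted p = 0.0027 and 0.010), and Slc25a26 remained above 0 at 0.26 ± 0.086 (limma adjusted p = 0.055). For Slc25a10, Slc25a20 and Slc25a38 the difference was -0.0089, -0.088 and -0.021, in place of 0.42, 0.41 and 0.35.

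Of the 9 members lower on day 3, 5 kept the call. Slc25a23, Slc25a28, Slc25a30, Slc25a37 and Slc25a51 were lower with the other controls too, at -0.50, -0.26, -0.64, -0.46 and -0.17. Slc25a33, Slc25a36, Slc25a39 and Slc25a40 lost it, and the values of Slc25a33 and Slc25a39 turned to 0.0045 and 0.036. A further 5 members were higher against the other controls only, Slc25a1, Slc25a5, Slc25a22, Slc25a27 and Slc25a34, and 3 were lower only there, Slc25a16, Slc25a24 and Slc25a41. The iron carriers, Slc25a23 and Slc25a30 were thus lower on day 3 with either choice of controls and on day 6 against the controls of that day.

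**Figure D4:**
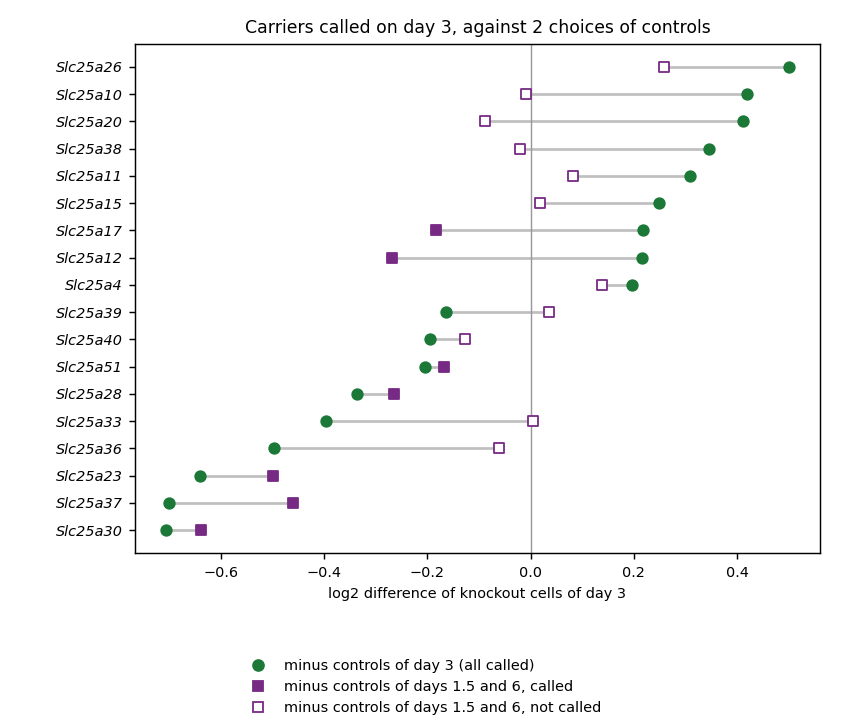
Log2 difference of the knockout cells of day 3 for the 18 members called on that day (rows), against the controls of day 3 (green circles) and against the average of the day 1.5 and day 6 controls (purple squares, filled where called). The 9 higher members all move left and none keeps its call, and 5 of the 9 lower members keep theirs.

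Promoters were searched for letters tied to Ronin and to 2 other factors of mitochondrial genes, in RefSeq windows of the GRCm38.p6 assembly that run from 250 bases before to 50 bases after a start. Windows were found for 33 of the 43 members, 42 in all. The core of the sequence reported for Ronin with HCF-1, ACTACA then any 2 bases then TCCC, on either strand, lay in no member's window, beside 2.08% of 27025 genes with a window. Among the 494 tested genes that hold it, 43.1% were lower and 22.9% higher on day 6, beside 15.3% and 17.2% of all genes. For ACTACA, GCATGCGC and CCGGAAG the shares lower were 24.6%, 16.0% and 18.0%, and the shares higher 18.9%, 23.8% and 21.8%. ACTACA alone, which the longer motif includes, was in the windows of Slc25a14 and Slc25a16, beside 11.8% of genes. GCATGCGC, a match for NRF1, was in that of Slc25a54, beside 3.05%. CCGGAAG, a match for the ETS family to which GABP belongs, was in those of Slc25a3, Slc25a4, Slc25a17, Slc25a20, Slc25a25, Slc25a38 and Slc25a54, beside 9.93% of genes. A match is a description of these letters in this window, and no match says nothing about the factor elsewhere.

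Of the 7 carriers with CCGGAAG, Slc25a17, Slc25a20 and Slc25a38 were among those with a low point on day 3 in controls, and Slc25a4 was higher in knockout cells of days 1.5 and 3. Their upstream 250 bases are shown, 5′ to 3′ on the strand of the gene, with the motif in capitals. They were chosen after the values were seen. The windows are chr15:81360766-81361015 on the minus strand, chr9:108661886-108662135 on the plus strand, chr9:120110132-120110381 on the plus strand and chr8:46211063-46211312 on the minus strand, and the motif begins at -77, -79, -46 and -130 from the start.
Slc25a17: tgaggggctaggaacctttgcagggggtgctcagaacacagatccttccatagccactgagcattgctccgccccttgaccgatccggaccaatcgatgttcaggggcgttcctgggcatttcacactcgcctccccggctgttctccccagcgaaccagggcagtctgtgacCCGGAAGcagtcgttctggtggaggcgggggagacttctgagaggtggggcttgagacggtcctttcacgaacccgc
Slc25a20: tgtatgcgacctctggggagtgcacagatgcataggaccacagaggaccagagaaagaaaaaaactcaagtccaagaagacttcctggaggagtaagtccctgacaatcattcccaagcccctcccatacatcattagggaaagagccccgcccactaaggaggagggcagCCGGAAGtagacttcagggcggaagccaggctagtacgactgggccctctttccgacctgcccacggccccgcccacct
Slc25a38: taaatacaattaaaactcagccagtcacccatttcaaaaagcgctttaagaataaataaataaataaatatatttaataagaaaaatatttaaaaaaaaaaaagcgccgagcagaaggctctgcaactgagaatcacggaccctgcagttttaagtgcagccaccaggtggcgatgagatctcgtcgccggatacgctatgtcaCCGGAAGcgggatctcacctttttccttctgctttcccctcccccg
Slc25a4: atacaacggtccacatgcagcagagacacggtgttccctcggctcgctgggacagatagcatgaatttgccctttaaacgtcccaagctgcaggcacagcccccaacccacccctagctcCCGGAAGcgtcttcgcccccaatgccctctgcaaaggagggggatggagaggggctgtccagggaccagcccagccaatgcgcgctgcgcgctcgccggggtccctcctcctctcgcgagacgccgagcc

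The effect of the knockout differed between days in a part of the family. Between days 1.5 and 3 it differed for 11 members, 25.6%, beside 15.0% of all genes. Between days 3 and 6 it differed for 7, 16.3%, beside 16.4%, and between days 1.5 and 6 for 12, 27.9%, beside 19.3%. In the last, 10 members moved down and 2, Slc25a26 and Slc25a48, moved up. Shares of all genes by direction are not given here, so this balance is not read as a trait of the family. The median change was -0.018 in the family and 0.0022 in all genes. The calls of Slc25a26, Slc25a33, Slc25a39, Slc25a41 and Slc25a48 stayed whichever array was left out. The value of Slc25a39, -0.32, turned to 0.032 with probe sets without a suffix. Slc25a23 moved by -0.63 ± 0.18, Slc25a37 by -0.64 ± 0.15, Slc25a30 by -0.56 ± 0.13 and Slc25a33 by -0.54 ± 0.082 between days 1.5 and 6. The differences between days 1.5 and 3 and between days 3 and 6 rest in part on the controls of day 3.

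The genes around the carriers were read from lists that were chosen with earlier results of these data known. Their shares, here and in the next paragraphs, are therefore descriptions and not tests. Of 4 measured carriers named outside the symbol pattern, only Mtch1, an outer membrane relative, was called on day 6, at 0.23 from 924 and 881 to 1035 and 1078, and the brighter Mtch2 read 3290.4 and 3276 against 3282 and 3368, which was not called at 0.018. Of 19 other transporters of the mitochondrial membranes, 3 rose and 11 fell on day 6, 15.8% and 57.9% beside 17.2% and 15.3% of all genes, with a list median of -0.21. Letm1, a cation exchanger of the inner membrane, fell from 379 and 399 to 166 and 188, a difference of -1.14 ± 0.10, and Sfxn1, the serine transporter of one-carbon metabolism, from 2204 and 2168 to 1266 and 1226, a difference of -0.81 ± 0.064. Micu2, a regulator of the calcium uniporter, rose by 0.89 ± 0.11 from 198 and 206 to 363 and 385, and Slc8b1, the sodium-calcium exchanger, by 0.53 ± 0.072, from 266 and 265 to 379.7 and 388. Vdac1, the brightest of this list and the main pore of the outer membrane, read 11326 and 10908 in controls and 9699 and 9521 in knockout cells, a difference of -0.21 ± 0.056.

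The route by which carrier proteins enter the inner membrane was lower in part on day 6, with 0 of 13 members higher and 6 lower, or 46.2%, beside 17.2% and 15.3% of all genes. Timm8a1, a chaperone of the intermembrane space, fell from 5909 and 5687 to 4077 and 4014, a difference of -0.52 ± 0.048, and Tomm40, the import pore, from 1335 and 1332 to 999 and 975, a difference of -0.43 ± 0.053. The brightest, Tomm20, a receptor of the outer membrane, read 14672 and 15134 against 14713 and 14861, which was not called at -0.011. Of 22 enzymes and uptake genes that handle the carried substrates, 6 rose and 6 fell on day 6, 27.3% each, beside the same 17.2% and 15.3%. The largest falls were in Pck2, mitochondrial phosphoenolpyruvate carboxykinase, at -1.54 ± 0.076, from 1611 and 1671 to 555 and 571, and in Slc1a5, the glutamine transporter of the cell surface, at -1.37 ± 0.087, from 545 and 566 to 226 and 204. Idh1, cytosolic isocitrate dehydrogenase, rose by 0.64 ± 0.048, from 1953 and 1975 to 3018 and 3109.9. Mdh2, the malate dehydrogenase of the matrix and the brightest of the list, rose by 0.19 ± 0.048, from 11976 and 11632 to 13189.5 and 13654. Arg2, mitochondrial arginase, was called higher too, but it read only 12.5 and 18.2 in controls and 29.7 and 28.2 in knockout cells, under the medians of all arrays, and was not shown to be above background.

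Regulators of mitochondrial genes had 0 of 8 higher and 4 lower on day 6, beside 17.2% and 15.3% of all genes. Pprc1 and Ppargc1b, coactivators of the PGC-1 family, read 1651 and 1659.8 and 213 and 194 in controls and 849 and 829 and 109 and 108 in knockout cells. Their log2 differences were -0.98 ± 0.053 and -0.90 ± 0.086 (limma adjusted p = 1.9e-06 and 5.8e-05), with no overlap of the arrays, and the brightest of the list, Yy1, read 4210.3 and 4049.8 against 4503 and 4525, which was not called at 0.13. On day 3, 6 of the 19 other transporters, 0 of the 13 import genes, 6 of the 22 enzymes and 2 of the 8 regulators were lower, and 1, 1, 7 and 0 were higher, beside 10.0% of all genes lower and 13.3% higher.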

How the data were processed

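RNA of 12 samples was read on 1-colour Affymetrix arrays. The deposited values are RMA intensities per probe set, per the submitters' processing notes, which give no version. RMA removes background, gives arrays a shared distribution and condenses each probe set to 1 value. Values between 5.51 and 34993 showed a linear scale, so log2 was taken first. Of 45101 probe sets, 34958 had 1 symbol in the platform annotation, 932 several and 9211 none. The 43 members had 92 probe sets, 20 members having 1 each, and all 43 symbols matched RefSeq. Slc25a21, Slc25a43 and Slc25a52 were not analysed here.

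A linear model with a mean per group was fitted over all 12 arrays (lmFit and eBayes of limma 3.58.1, R 4.3.3, 3.04 prior and 6 residual degrees of freedom). Calls were made at 0.05 after Benjamini-Hochberg adjustment over 18194 genes, and errors are standard errors of log2 differences. The labels do not say whether the arrays of a group stem from separate cultures, so p-values reflect only their spread, which may be technical. Precision is limited by how few arrays there are, and detection calls and scan dates were not used here. Figures were drawn with matplotlib 3.10.9.

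Members, lists and promoter motifs were chosen with earlier results of these data known. Values per array are given for members called with a log2 difference of at least 0.5, the 4 brightest, the 3 largest control changes per direction and, on day 6, the 2 largest changes per direction and the brightest gene of each further list. Some other members are also given with values per array outside this rule, and the rest are named by call and role. Alternatives were a replicate block, only the arrays compared, trend and robust eBayes, weights per array, a filter on the dimmest 40% of genes, averaged probe sets, probe sets without a suffix, median centring, quantile normalization, other controls for day 3 and leaving out each array. Within groups the log2 values correlated at 0.998 to 0.999, and the SD of the difference of both arrays was 0.15 to 0.16.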

Additional observations from a re-analysis of the deposited data

Results flagged for a closer look

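The knockout effect of 20 members differed between days by limma's test of the difference itself (adjusted p under 0.05 over all genes), given here as log2 changes of the effect. The share of all genes that differed between any of the days is not given here. From day 1.5 to day 3 it moved up for Slc25a14 (0.44), Slc25a24 (0.58), Slc25a38 (0.43), Slc25a48 (0.52) and Slc25a54 (0.45). It moved down for Slc25a28 (-0.48), Slc25a30 (-0.69), Slc25a33 (-0.48), Slc25a36 (-0.54), Slc25a37 (-0.76) and Slc25a40 (-0.47). Of these 11 calls, 6 stayed whichever array was left out, and those of Slc25a14, Slc25a28, Slc25a38, Slc25a48 and Slc25a54 did not.

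From day 3 to day 6 the effect moved up for Slc25a36 (0.52), Slc25a40 (0.59) and Slc25a44 (0.39) and down for Slc25a12 (-0.50), Slc25a17 (-0.40), Slc25a22 (-0.26) and Slc25a32 (-0.57). Slc25a36 and Slc25a40 thus moved down and then up. The calls of Slc25a22 and Slc25a44 did not stay when single arrays were left out, and both were lost with a replicate block, that of Slc25a44 also with quantile normalization. These 2 sets of values rest in part on the controls of day 3.

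From day 1.5 to day 6, which does not use the arrays of day 3 as a baseline, the effect moved up for Slc25a26 (0.82) and Slc25a48 (0.67). It moved down for Slc25a12 (-0.32), Slc25a17 (-0.23), Slc25a22 (-0.27), Slc25a23 (-0.63), Slc25a28 (-0.42), Slc25a30 (-0.56), Slc25a33 (-0.54), Slc25a37 (-0.64), Slc25a39 (-0.32) and Slc25a41 (-0.51). Of these 12 calls, 5 stayed whichever array was left out, those of Slc25a26, Slc25a33, Slc25a39, Slc25a41 and Slc25a48. With the mean of all probe sets Slc25a17, Slc25a26 and Slc25a30 were not called, and with probe sets without a suffix the value of Slc25a39 turned to 0.032. Slc25a48 and Slc25a41 are dim, and their highest arrays read 55.8 and 35.0.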

How the results depend on the processing

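Counts of members called moved with the spread estimate. With only the 4 arrays compared, 0 in place of 6 were called on day 1.5 (14 at an unadjusted limma p under 0.05), 9 in place of 18 on day 3, and among controls 0 in place of 2 from day 1.5 to day 6 (6 unadjusted) and 8 in place of 18 from day 3 to day 6. Trend and robust eBayes gave 11 on day 1.5, 19 in place of 11 for the change of effect from day 1.5 to day 3 and 15 in place of 7 from day 3 to day 6. Leaving out the dimmest 40% of genes gave 12 for the last, and the mean of all probe sets gave 3 on day 1.5. The 2 control calls from day 1.5 to day 6 became 1 with the mean of all probe sets, probe sets without a suffix or median centring, and the lost call was that of Slc25a12.

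Leaving out 1 array gave 0 to 6 calls on day 1.5, 9 to 18 on day 3, 11 to 21 on day 6, 10 to 16 and 0 to 1 for controls of days 3 and 6 against day 1.5, and 12 to 16 for controls of day 6 against day 3. For the changes of effect it gave 7 to 13 from day 1.5 to day 3, 5 to 7 from day 3 to day 6 and 6 to 13 from day 1.5 to day 6. Without control replicate 2 of day 6 the control count of 0 from day 1.5 to day 6 stood beside 7 at an unadjusted limma p under 0.05.

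Replicate numbers did not pair the arrays: same-numbered arrays deviated together with r of -0.057 to 0.17 over 15 pairs of groups, 14 of them not above 0.1. With a replicate block, 5, 17 and 18 members were called on days 1.5, 3 and 6, and 1 in place of 2 from control day 1.5 to day 6.

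Over all genes, the 1803 calls of day 1.5 became 455 with only the arrays compared, 2756 with trend and robust eBayes and 714 to 833 without 1 array of that day. The 4250 calls of day 3 became 2506 and, without knockout replicate 1, 2727. The 4966 control calls from day 1.5 to day 3 became 2829 and, without control replicate 1 of day 1.5, 3156. The 285 from day 1.5 to day 6 became 0 (with 2486 at an unadjusted limma p under 0.05), 894 with trend, 660 without dim genes, 187 with the mean of probe sets and 18 to 184 without 1 array of those days. The 5000 from day 3 to day 6 became 2760, and 3072 and 3315 without either control array of day 6. Changes of effect went from 2723 to as few as 1724 (day 1.5 to 3) and from 2991 to as few as 1883 (day 3 to 6) without 1 array.

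The knockout differences of days 3 and 6 past 0.5 in size, those of Slc25a23, Slc25a26, Slc25a30, Slc25a37 and Slc25a44, kept their direction under all alternatives run, and their calls on these days except for Slc25a23 on day 3 without knockout replicate 1 (-0.55) and Slc25a26 on day 3 with the other controls (0.26). With the mean of all probe sets, signs turned for Slc25a3 on day 6 (0.026), Slc25a17 on day 3 (-0.037) and Slc25a12 in controls from day 3 to day 6 (-0.037). With probe sets without a suffix they turned for Slc25a3 on day 6 (0.21) and for Slc25a39 in controls from day 1.5 to day 3 (-0.12) and in the change of effect from day 1.5 to day 6 (0.032). With the other controls of day 3, 7 of the 18 calls turned sign. Causes of these moves were not tested.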
